A study of Caenorhabditis elegans with 6 samples.

Results

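The nssp and nspg genes of C. elegans, which encode small peptides known from nematodes, were examined in touch receptor cells that expressed a polyglutamine protein. The members are all genes whose current symbol, looked up by the gene id in the probe annotation, begins with nssp- or nspg-. By this rule 71 of the 7477 named genes on the arrays were members, 59 of them nssp and 12 nspg, out of 22321 features (a feature is a named gene or a single unnamed probe). The gene table lists 86 nssp and 14 nspg genes, and the other 27 nssp and 2 nspg genes, nspg-3 and nspg-6, have no named probe and were not analysed here. Every member was read by 1 probe, so no other probe of a gene was there to compare with, and whether a probe also reads a similar gene of its family was not tested. Both families were chosen by their ratios in earlier results of these same arrays, so the calls and counts describe the members and support nothing.

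The cells of main interest expressed 128Q, an N-terminal part of huntingtin with an expanded polyglutamine stretch, and were compared with cells expressing 19Q, the same part with a normal stretch. The 19Q cells were in turn compared with cells expressing GFP only. The mec-3 promoter drove the huntingtin parts and, in the control, GFP, and the huntingtin parts were fused to a fluorescent protein. Embryos were dissociated, the cells were grown overnight, and GFP-positive cells were sorted from these primary cultures, so no animal age applies. For each huntingtin construct the study's strain list gives 1 integrated line with a CFP fusion, which also carries lin-15(+) and mec-7p::YFP. The main text describes fusions to GFP, and which line supplied the sorted cells is not stated. A difference between lines cannot be told apart from a difference between polyglutamine lengths. In 19Q over GFP it cannot be told apart from the presence of the huntingtin part. Each comparison had 3 sets of 2-colour ratios, described as biological replicates, and the methods speak of independent experiments without saying whether these were separate cultures, so p-values measure the spread between these sets.

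Touch receptor cells are a small group of sensory neurons that respond to light touch on the body of the worm. Expanded polyglutamine in huntingtin causes Huntington's disease in humans. The symbol nspg stands for nematode-specific peptide family, group G. Genes of both classes are predicted to encode short peptides, and for most of them no role in these neurons is established. For this reason the genes are ordered below by family and by ratio, not by function.

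A value is a log ratio in the deposited units. Its log base is not stated, so no fold is given. The labels give Cy5 to the cells named first, and values above 0 were read from this as a higher level in those cells, relative to a set mean near 0. How the dye-swapped arrays entered each set is not stated. A gene was tested where all 3 sets of its comparison had a value. Over all features the sets of 128Q over 19Q correlated at 0.538 to 0.677, and the first and second sets of 19Q over GFP at 0.744. Replicate 3 of 19Q over GFP correlated with them at only 0.113 and 0.01. It therefore stands apart, and the family counts and medians of this comparison are also given without it. Of 30 marker genes fixed for touch receptor cells, other neurons, muscle, hypodermis, intestine and other tissues, 0 have a named probe. Neither the labelled cell type nor the share of other cells could therefore be checked from the named probes. Among genes lower in 128Q cells, the study's own list gives the touch receptor markers mec-7, mec-12, mec-17 and mec-18. It also gives pha-4 and myo-2 of the pharynx, and elt-2 and ifb-2 of the intestine. The rest of the 30 were not looked up there in either direction. The markers named thus cannot show which cell types were fewer, and any link to the ratios below was not tested.

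In 128Q over 19Q most nssp genes had ratios below 0. The mean ratio was below 0 for 51 of the 59 genes, which is 86.4% of them, beside 45.6% of all features tested. The median of the 59 means was -0.67, with quartiles of -0.96 and -0.32, while the median over all features was 0.05. On all 3 sets 43 nssp genes were below 0, or 72.9%, against 25.7% of all features. Only nssp-72, nssp-85 and nssp-91 were above 0 on all 3 sets, or 5.08%, against 30.9% of all features. In sorted cells a smaller number of cells of a type and less RNA per cell cannot be told apart.

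**Figure D1:**
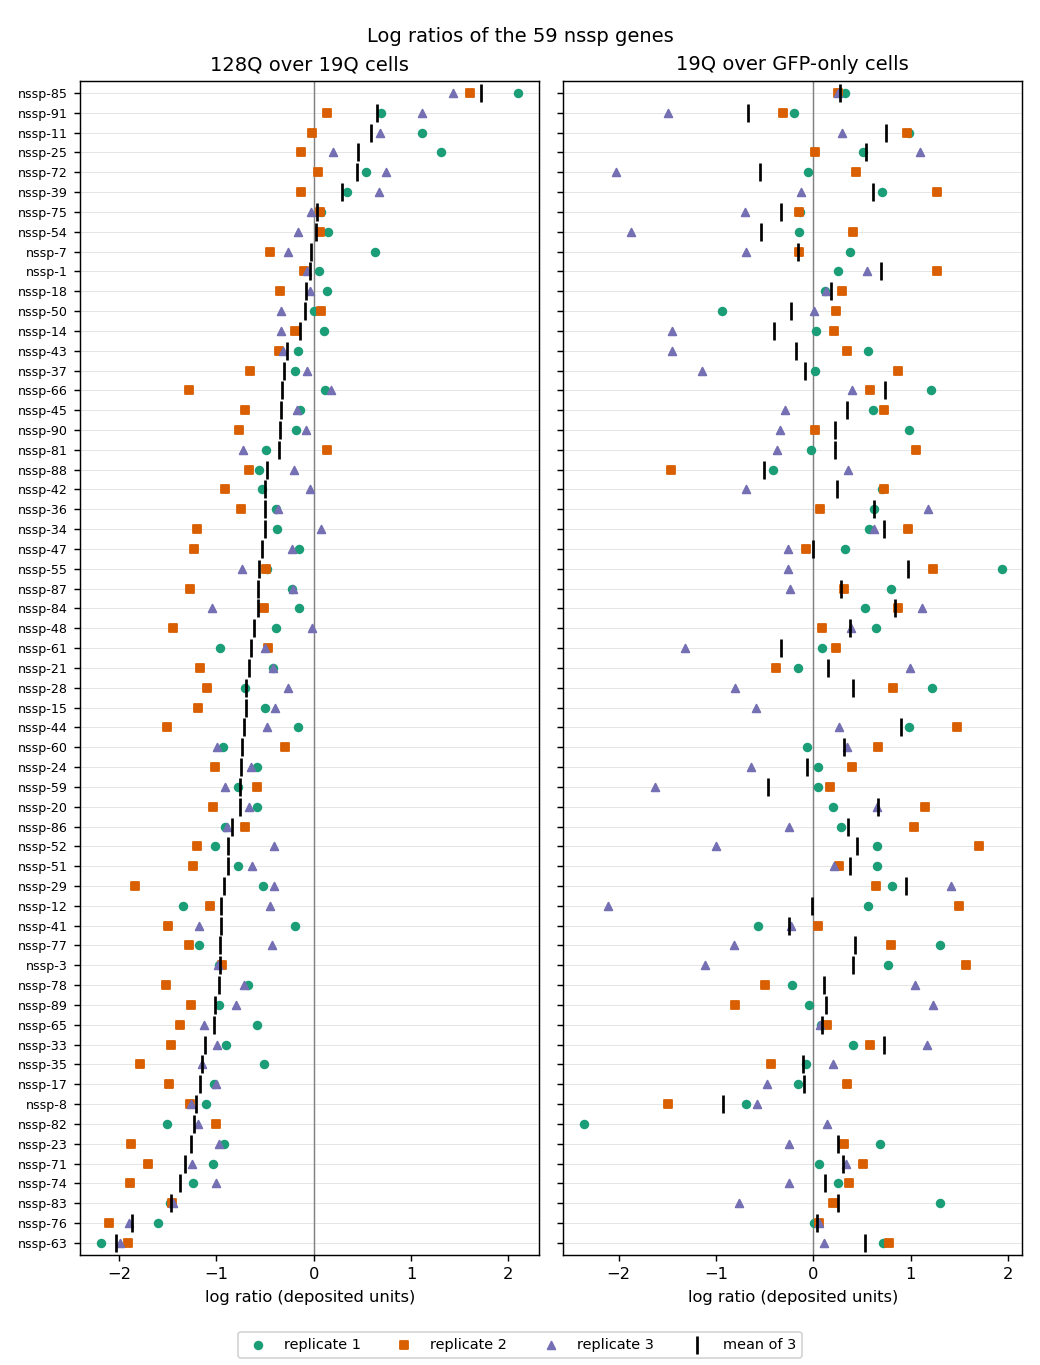
Log ratios in deposited units (horizontal axis) of the 59 nssp genes, 1 gene per row ordered by mean in 128Q over 19Q, with 128Q over 19Q on the left, 19Q over GFP only on the right, a symbol for each replicate and a bar at the mean where all 3 values exist. On the left 51 means lie below 0, while on the right 39 of 57 lie above 0 and the replicates are wider apart.

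The limma fit over all 22033 features called a gene at an adjusted p (Benjamini-Hochberg) under 0.01. It called 2 nssp genes lower in 128Q cells, where 1.17% of all features were called lower, and 1 nssp gene higher, where 1.63% of all features were called higher. The gene with the lowest mean was nssp-63 (F58B4.3), with -2.185, -1.903 and -1.989 on the 3 sets. Its values lay close together, and its mean of -2.03 ± 0.14 (SD, n = 3) had an adjusted p of 0.00305 in limma. Only 0.667% of all features had a lower mean. The next was nssp-76 (T07D1.3), with -1.600, -2.099 and -1.900. All of its sets were again far below 0, with a mean of -1.87 ± 0.25 (SD, n = 3) and an adjusted p of 0.00275 in limma. The gene called higher was nssp-85 (M02D8.6), with 2.104, 1.611 and 1.434. It stood opposite to the family on every set, with a mean of 1.72 ± 0.35 (SD, n = 3) and an adjusted p of 0.00418 in limma. With any 1 of the 3 sets of 128Q over 19Q left out, none of these 3 genes was called, and their adjusted p in limma was then 0.025 to 0.0408. In each of these fits 0 of all features were called higher and 0 lower. The mean of each of the 3 genes kept its sign. The gene nssp-85 was also not called when each comparison was fitted alone (adjusted p 0.0119 in limma) or without replicate 1 of 19Q over GFP (0.0137).

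Below these came 10 nssp genes that were not called at the threshold of 0.01 but had adjusted p under 0.05 in limma, so that 12 of the 59 were lower at that threshold, where 5.58% of all features were. The 10 were nssp-71, nssp-74, nssp-8, nssp-17, nssp-65, nssp-33, nssp-23, nssp-51, nssp-35 and nssp-83. The study's own list of genes lower in 128Q cells, at an FDR under 0.01, includes nssp-8, nssp-63, nssp-74, nssp-76, nssp-82 and nssp-83. Its test was not rerun here, and nssp-82 had an adjusted p of 0.163 in limma. The gene nssp-71 had -1.029, -1.700 and -1.248, and nssp-74 had -1.237, -1.888 and -1.002. In both the second set was the lowest, and no set came near 0. Their adjusted p values in limma were 0.0114 and 0.0158. The tightest replicates of any member were those of nssp-83 (C47D2.1), at -1.478, -1.456 and -1.447. The SD was 0.016, and yet the adjusted p in limma was 0.0465. The fit takes 1 spread per gene from both comparisons, and nssp-83 had 1.306, 0.206 and -0.762 in 19Q over GFP. Fitted on its own comparison, nssp-83 was called. The replicates of nssp-3 were also tight, at -0.968, -0.940 and -0.982, with an adjusted p of 0.249 in limma, and it had 0.770, 1.572 and -1.109 in 19Q over GFP. Fitted on its own comparison, nssp-3 was not called. Without replicate 3 of 19Q over GFP, 8 nssp genes were called lower, namely nssp-8, nssp-17, nssp-33, nssp-63, nssp-71, nssp-74, nssp-76 and nssp-83. Calls were more frequent over all features too in that fit, where 3.32% were called lower.

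The spread within the family was wide. In 13 nssp genes the mean was -1 or lower, in 19 it lay within 0.5 of 0, and in 42 of the 59 the mean was larger in size than its own SD. These counts were not made over all features, so they only describe the family. The median SD was 0.357, beside 0.287 over all features. An unadjusted p under 0.05 was found for 25 of the 59 (42.4%), beside 25% of all features. Other genes held near 0, such as nssp-75 (C25G6.1) with 0.072, 0.069 and -0.029, and nssp-54 (C12D5.5) with 0.152, 0.064 and -0.157. Neither leaned to one side. Above 0 after nssp-85 came nssp-91 with 0.688, 0.140 and 1.118, and nssp-11 with 1.111, -0.015 and 0.679. Their sets were wide apart, and their adjusted p values in limma were 0.261 and 0.23. In nssp-25 and nssp-66 a single set decided the mean: nssp-25 had 1.310 on the first set against -0.128 and 0.197, and nssp-66 had -1.278 on the second against 0.115 and 0.177.

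The second set weighed most in the nssp genes. It was the lowest of the 3 sets for 42 of the 59 (71.2%), beside 41.2% of all features, and the median nssp ratio on it was -1.02, against -0.50 on replicate 1 and -0.42 on replicate 3. The medians of all features on these sets were 0.01, 0.08 and 0.03 in the same order. Without the second set the nssp median was still -0.49.

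The nspg genes fell into a low and a flat part in 128Q over 19Q. The 12 means had a median of -0.48, and 9 of them (75%) were below 0, beside 45.6% of all features. On all 3 sets 7 genes (58.3%) were below 0, against the 25.7% of all features given above, and 0 were above 0. No nspg gene was called in limma, and 6 (50%) had an unadjusted p under 0.05, beside the 25% of all features. The lowest adjusted p was 0.0326, for nspg-7.1. This split into 6 and 6 genes was seen in the values and was given no test.

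**Figure D2:**
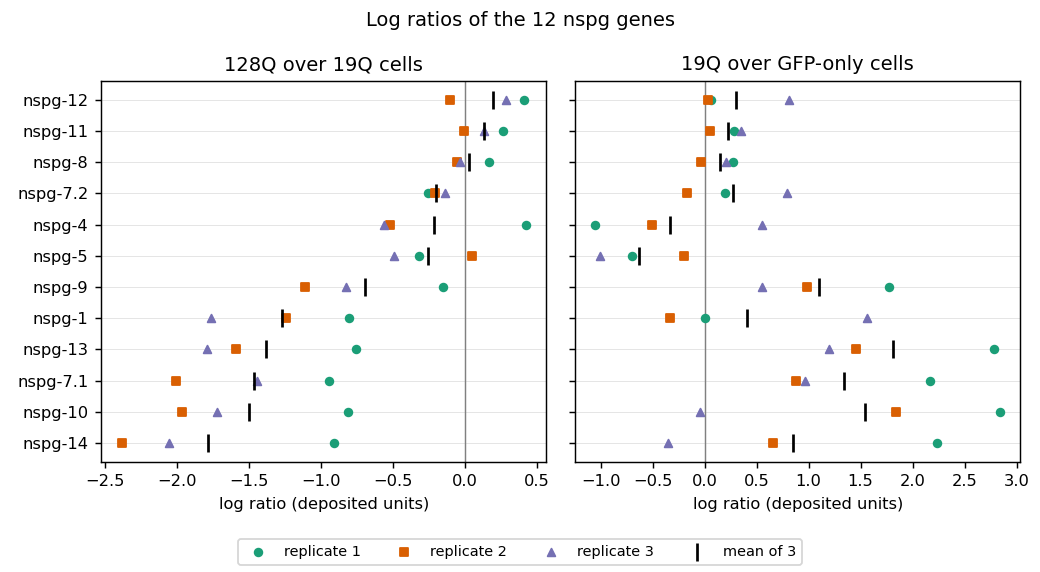
Log ratios in deposited units (horizontal axis) of the 12 nspg genes, 1 gene per row ordered by mean in 128Q over 19Q, with 128Q over 19Q on the left, 19Q over GFP only on the right, a symbol for each replicate and a bar at the mean. The lower 6 genes on the left have means of -1.78 to -0.70 and the upper 6 of -0.25 to 0.20.

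In the low part nspg-14 (Y34B4A.6) had the lowest mean, with -0.908, -2.387 and -2.057. The first set was far nearer to 0 than the others, and the mean was -1.78 ± 0.78 (SD, n = 3) with an adjusted p of 0.0681 in limma. The gene nspg-10 (F19C7.1) had -0.813, -1.965 and -1.721, and nspg-7.1 (T20D3.2) had -0.944, -2.006 and -1.442. The gene nspg-13 (Y34B4A.9) had -0.759, -1.591 and -1.795, and nspg-1 (T07F10.6) had -0.802, -1.247 and -1.763. In each of these 5 the first set was the highest, and no set was above 0. The gene nspg-9 (LLC1.2) was weaker, with -0.154, -1.112 and -0.825. On replicates 2 and 3 all 6 genes lay below every other nspg gene, whereas on the first set nspg-9 was above nspg-5 and nspg-7.2. Their adjusted p values in limma were 0.0326 to 0.198.

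In the flat part nspg-7.2 (Y53G8AM.5) had -0.255, -0.209 and -0.139, the tightest sets in this family. All 3 were below 0, but the adjusted p in limma was 0.672. The genes nspg-8 (0.168, -0.055 and -0.032), nspg-11 (0.263, -0.003 and 0.136) and nspg-12 (0.415, -0.105 and 0.284) each crossed 0. So did nspg-4 (0.426, -0.519 and -0.559) and nspg-5 (-0.322, 0.050 and -0.490). The first set was the highest for 10 of the 12 nspg genes (83.3%), beside 42% of all features. Without it the nspg median was -0.75.

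In 19Q over GFP the nssp ratios were more often above 0 than below it, and none was called. Of 57 nssp genes tested, 39 (68.4%) had a mean above 0, beside 57.7% of all features, and the median of the means was 0.25, beside 0.09 for all features. Called genes were 0 in each direction, as they were over all 21897 features (0% higher and 0% lower), of which 4825 had an unadjusted p under 0.05. The study's own list for this comparison does hold changed genes, but none of the members. Its test was not rerun here, so the 0 belongs to this fit. Of the nssp genes 12 (21.1%) had an unadjusted p under 0.05, beside 22% of all features, and the lowest adjusted p in limma was 0.139. On all 3 sets 19 nssp genes (33.3%) were above 0, against 27.3% of all features, and 3 (5.26%) were below 0, against 13.3% of all features. The genes nssp-15, with 1 value, and nssp-82, with 2 values, were not tested.

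The lowest adjusted p of the nssp genes here belonged to nssp-8 (T06G6.12), with -0.694, -1.491 and -0.580, all below 0. The gene with the highest mean was nssp-55 (C12D5.3), with 1.935, 1.229 and -0.258. Its replicate 3 was below 0, and its adjusted p in limma was 0.209. Next were nssp-29 with 0.813, 0.640 and 1.415, nssp-44 with 0.987, 1.472 and 0.260, and nssp-84 with 0.529, 0.869 and 1.119. All 9 of these values were above 0. Their adjusted p values in limma were 0.147 to 0.192. Of the nssp genes tested, nssp-12 had the widest spread, at 0.564, 1.501 and -2.110.

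Replicate 3 of 19Q over GFP ran against the other two in this family. Its nssp median was -0.24, with 32 of 59 genes below 0, whereas the medians were 0.31 on the first set and 0.35 on the second, with 16 of 58 and 10 of 57 genes below 0. It was the lowest set for 36 of 57 nssp genes (63.2%), beside 43% of all features. With this set left out 47 of the 57 nssp means (82.5%) were above 0, beside 59.9% of all features, and 40 genes (70.2%) were above 0 on both remaining sets, beside 44%. The nssp median was then 0.37, while it was 0.12 without replicate 1, 0.14 without replicate 2 and 0.14 after centring each set on its median. Of the 69 member means 15 changed sign without replicate 3.

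Most nspg genes also had ratios above 0 in 19Q over GFP. Of the 12 means 10 (83.3%) were above 0, beside 57.7% of all features. Their median was 0.36 and the highest mean 1.81. On all 3 sets 5 genes (41.7%) were above 0, against the 27.3% of all features, and 1, nspg-5 (8.33%), was below 0, with -0.695, -0.199 and -1.007, against the 13.3%. None was called, 5 (41.7%) had an unadjusted p under 0.05, beside the 22% of all features, and the lowest adjusted p in limma was 0.127. Without replicate 3, 9 of the 12 nspg means (75%) were above 0, beside 59.9% of all features, and the nspg median was 0.14.

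That lowest value was for nspg-13, with 2.786, 1.458 and 1.199. Its mean of 1.81 ± 0.85 (SD, n = 3) was above 99.9% of all features. The gene nspg-10 had 2.840, 1.839 and -0.046, and its mean of 1.54 was above 99.8% of all features. The gene nspg-7.1 had 2.166, 0.883 and 0.965, and nspg-9 had 1.777, 0.983 and 0.549. In nspg-13, nspg-7.1 and nspg-9 every set was above 0, while in nspg-10 replicate 3 was near 0. The gene nspg-14 had 2.237, 0.654 and -0.350, and nspg-1 had 0.000, -0.332 and 1.561. For these the sets ran from below 0 to well above it. In 5 of the 6 genes, all but nspg-1, the first set was the highest.

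**Figure D3:**
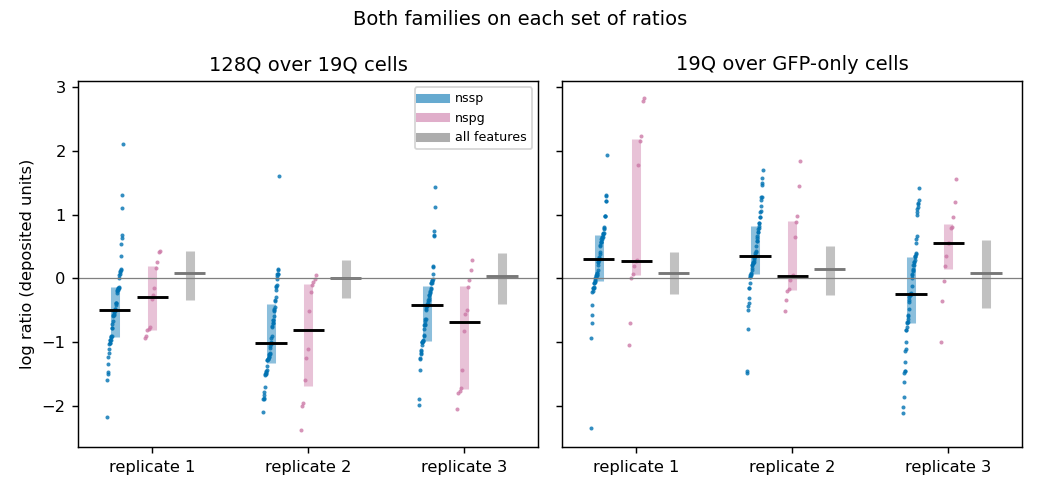
Log ratios in deposited units (vertical axis) on each replicate of 128Q over 19Q (left) and 19Q over GFP only (right), with a point per nssp or nspg gene, shaded bars from the first to the upper quartile and a line at the median, also for all features. The nssp and nspg medians lie below 0 on each of the 3 replicates on the left, while on the right the nssp median is 0.31, 0.35 and -0.24 on replicates 1 to 3.

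Both comparisons contain 19Q RNA, in the denominator of 128Q over 19Q and in the numerator of 19Q over GFP, so they are not independent. The values are therefore set side by side with no test. The gene nssp-63 was below 0 on its 3 sets of 128Q over 19Q and had 0.716, 0.783 and 0.111 in 19Q over GFP. In nssp-76, which was low in 128Q over 19Q, the values in 19Q over GFP were only 0.013, 0.058 and 0.060. The gene nssp-8 was below 0 on all 6 sets, with -1.105, -1.270 and -1.260 in 128Q over 19Q and the values given above in 19Q over GFP. The gene nssp-85 was above 0 on all 6, with 0.331, 0.256 and 0.253 in 19Q over GFP. In nspg-13, nspg-7.1 and nspg-9 all 3 sets were below 0 in 128Q over 19Q and all 3 above 0 in 19Q over GFP.

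Genes that lie close together did not always have like ratios. Only protein-coding genes were kept for the order and counted here. In the order of the gene table nspg-12, nspg-13 and nspg-14 follow each other with 0 such genes between neighbours. Their means in 128Q over 19Q were 0.20, -1.38 and -1.78, and in 19Q over GFP 0.30, 1.81 and 0.85. The first of the 3 thus stayed near 0 where the others were low. With 2 protein-coding genes between them, nspg-7.1 and nspg-11 had means of -1.46 and 0.13 in 128Q over 19Q. With 1 gene between them, nssp-74 and nssp-75 had -1.38 and 0.04, and nssp-54 and nssp-55 had 0.02 and -0.57. With 6 genes between them, nssp-17 and nssp-18 had -1.17 and -0.08. In each of these pairs 1 gene was near 0 and the other was not.

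The protein-coding genes directly beside the members gave a comparison from the same stretches of the genome. Of 136 distinct neighbours that are no members, 54 have a named probe. In 128Q over 19Q 24 of these 54 (44.4%) were below 0, with a median of 0.07 and a range of -2.10 to 2.88. Of the 54, 2 were called higher and 2 lower, beside 1.63% and 1.17% of all features. In 19Q over GFP 27 of 53 (50.9%) were below 0, beside 42.3% of all features, with a median of -0.003. There 0 were called in either direction, as over all features. By the share below 0 in 128Q over 19Q, the neighbours as a set were near the 45.6% of all features. The nssp genes were at 86.4%. Beside the called genes this was not so for each neighbour. In 128Q over 19Q the 1 named neighbour of nssp-63 had a mean of -1.79. Those of nssp-85 had means of 2.88 and 0.57, and nssp-76 had no named neighbour. Whether members and neighbours change together was not tested.

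**Figure D4:**
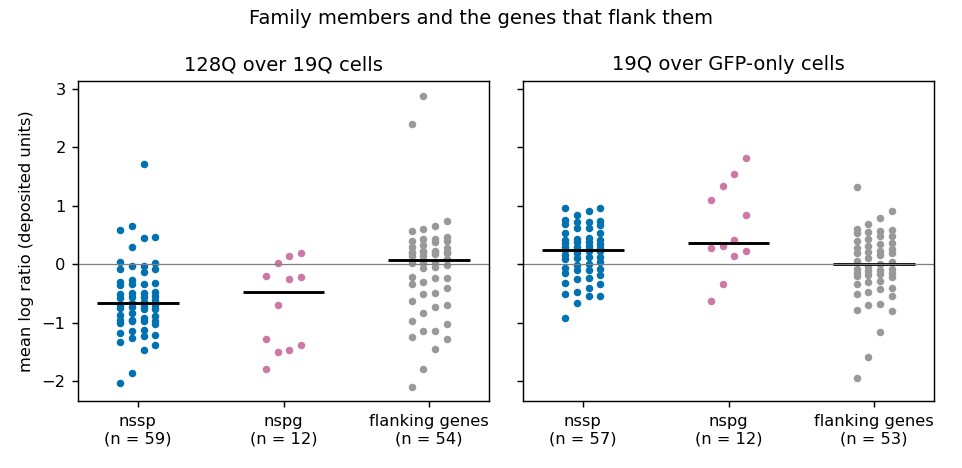
Mean log ratio in deposited units (vertical axis) of each nssp gene, nspg gene and named protein-coding gene directly beside a member, in 128Q over 19Q (left) and 19Q over GFP only (right), with a line at each median. On the left the medians are -0.67 for nssp, -0.48 for nspg and 0.07 for the flanking genes.

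Other families of small secreted or nematode peptides were mostly without named probes. Of 14 such families 12 had 0 named genes, among them the nspa to nspf groups, the FMRFamide-like and the insulin-like peptides. The study's own list of genes lower in 128Q cells includes nspb, cnc, flp and ins genes. A family without named probes was thus not always absent from the arrays. Genes of these families that were higher in 128Q cells were not looked up in that list. The neuropeptide-like proteins, nlp, had 25 named genes, which are not the whole family. The median of the 25 in 128Q over 19Q was -0.93, and 23 (92%) were below 0, beside 45.6% of all features. On all 3 sets 19 (76%) were below 0, beside 25.7% of all features. Among the 25, 1 was called lower and 0 were called higher, beside 1.17% and 1.63% of all features. In 19Q over GFP their median was 0.30, and 19 of the 25 were above 0, beside 57.7% of all features. The saposin-like spp family had 2 named genes, both below 0 in 128Q over 19Q and neither called.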

How the data were processed

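The authors took RNA through 1 round of linear amplification, coupled Cy3 or Cy5 to it, hybridised Agilent arrays, some with dyes swapped, and scanned these with a GenePix scanner. What they deposited was handled as a score in deposited units, a log ratio whose log base is unknown. No source used here gives the background correction, the normalization or the merging of dye swaps. Each set has a mean near 0. The SD is 1 except for replicate 2 (0.783) and replicate 3 (0.81) of 128Q over 19Q. Plain log ratios had been assumed in the design, and since a test of a mean against 0 does not need the base, it was kept. With set means near 0, the 0 of this test is close to the mean of each set. A unit may also differ between sets.

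Of 22562 probes, 7718 carry 1 symbol, 0 carry several and 14844 carry none. The gene table of the organism matched 7691 of them and served for current symbols and gene order alone, as no build is named for the arrays. Probes of a gene were averaged. A single limma fit (version 3.58.1, R 4.3.3) held all 6 sets and estimated 1 coefficient for each comparison, with empirical Bayes moderation (prior degrees of freedom 3.03). Benjamini-Hochberg adjustment ran over all features tested, with a threshold of 0.01. The fit was tested on simulated data. The number of arrays limits the precision.

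Every member could be named, while other peptide families and neighbours are given by counts. The neighbours of called members are also given by their means, without names. The members and lists were chosen with earlier results of these data known. As alternatives, the comparisons were fitted separately, the moderation was made robust, the sets were centred or also scaled, genes with 2 of 3 values were let in, probes were kept single, the threshold was set to 0.05, the replicate number was made a block, and each set was left out.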

Additional observations from a re-analysis of the deposited data

How the results depend on the processing

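Calls of nssp genes depended on single sets and on the fit. The 1 gene called higher in 128Q over 19Q became 0 with separate fits, 0 under a replicate block, and 0 to 1 when each set was left out. The 2 called lower became 0 with the replicate block (adjusted p of the 3 genes 0.0119 to 0.0158 in limma), 4 among named genes alone (chosen after seeing the data), 12 at a threshold of 0.05, and 0 to 8 when each set was left out. They were 0 without any 1 set of 128Q over 19Q, where 0 of all features were called in either direction. They were 8 without replicate 3 of 19Q over GFP, where 3.32% of all features were called lower. For nspg genes called lower the 0 became 1, nspg-7.1, at a threshold of 0.05. Robust moderation, centring, scaling, at least 2 of 3 values, single probes and leaving out 246 low probes at even distances (also chosen after seeing the data) kept these counts within 1.5 times.

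With each set left out the nspg median lay between -0.75 (without replicate 1) and -0.43 in 128Q over 19Q, and between 0.14 (without replicate 3) and 0.64 (without replicate 2) in 19Q over GFP. The nssp median stayed between -0.79 and -0.49 and between 0.12 and 0.37. Centring moved the median of all features in 19Q over GFP from 0.093 to -0.012, and the nssp and nspg medians were then 0.14 and 0.25. Scaling gave 0.17 and 0.14. No family median changed sign. Under the replicate block 162 features were called higher and 42 lower in 128Q over 19Q, against 359 and 257 without it. Deviations of sets with the same number correlated at 0.43, -0.13 and 0.335, and replicate 2 of 128Q over 19Q correlated better with replicate 3 of 19Q over GFP (0.255), so the numbers were not taken as pairs. The cause of these changes was not tested. With 3 sets per comparison, the smallest called mean of any feature in 128Q over 19Q was 1.12 units in size, and no smaller difference was called.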
